A study of Mus musculus with 22 samples.

Results

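Potassium channel genes were taken as all genes whose symbol begins with Kcn, Kcnq1ot1 left out, that had at least 10 counts in at least 10 of 22 mice. Of 97 such symbols 84 passed and 13 did not, among 17524 genes that passed in the whole table. They comprised 82 protein-coding genes and 2 antisense RNAs (Kcnmb4os2 and Kcnd3os), spread over 19 chromosomes. The members were tested for a difference between stimulated and control mice in the anterior cingulate cortex (ACC), a cortical area involved in mood and in the affective side of pain.

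RNA was sequenced from bulk ACC tissue of 12 control and 10 stimulated mice, each library coming from 1 animal. All were male wildtype C57BL/6J mice, 8 weeks old when the procedures began, with AAV5-CaMKIIa-ChR2(H134R)-EYFP in the basolateral amygdala (BLA) of both hemispheres and a unilateral optic fibre in the ACC. The stimulated mice received blue light on BLA axon terminals in 9 sessions, while in controls the light stayed off. Tissue of both sides was collected 48 h after the last session, so the RNA is mainly that of cells resident in the ACC and not of the BLA neurons that carried the opsin, whose expression the CaMKIIa promoter directs mainly to excitatory neurons. Library numbers in the labels ran in 2 sets, 1 to 11 (6 control and 4 stimulated mice) and 12 to 23 (6 and 6). The labels do not call these sets batches.

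Potassium channels let K+ leave or enter the cell along its gradient and thereby set the resting potential, end the action potential and limit repetitive firing. The pore is built by alpha subunits, which are voltage-gated (Kv), activated by calcium or sodium, inwardly rectifying (Kir) or tandem-pore leak channels (K2P). Auxiliary subunits such as the Kv beta proteins, the KChIPs (genes Kcnip) and the beta subunits of the BK channel change gating and trafficking.

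Total counts per mouse ranged from 23090483 to 43668462. Controls 9 and 11, both of the later set, stood apart by their oligodendrocyte markers, whose summed level was 18181.9 and 13522.2 CPM (counts scaled to the TMM-normalised library size) against at most 5875.9 in every other mouse. All 5 excitatory markers and all 6 inhibitory markers were detected, Slc17a7 at 1137 to 2963 CPM and Gad1 at 177 to 416 CPM. Libraries 1 to 11 had mitochondrial shares of 1.63% to 4.81%, libraries 12 to 23 of 0.982% to 1.90%. In bulk tissue, fewer cells of a type and less RNA per cell cannot be told apart.

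The abundance of channel transcripts was compared first, as CPM per kilobase of exon (level), over all 22 mice. A small number of genes dominated. The 5 highest held 30.7% ± 1.64 (SD, n = 22) of the summed level of the 84 genes, the 10 highest 49.5% ± 1.37 and the 20 highest 67.6% ± 1.84. Levels above 10 CPM per kilobase were found for 29 genes, levels from 1 to 10 for 43 and levels below 1 for 12. Kcnab2, which encodes a cytoplasmic Kv beta subunit, had the highest mean level over all mice at 56.2 ± 16.6 CPM per kilobase (SD, n = 22). Kcnip3, a calcium-binding KChIP also known as DREAM, followed at 55.6 ± 5.96 CPM per kilobase. The leak channel gene Kcnk1 had a level of 55.5 ± 7.82 and Kcnh3, an ELK channel of the forebrain, of 52.3 ± 17.0 CPM per kilobase. Over all mice these 4 levels lay within each other's SD, but their order differed between the library sets. In libraries 1 to 11 Kcnk1 was highest at 61.7 ± 7.29 CPM per kilobase (SD, n = 10), ahead of Kcnip3 at 51.6 ± 3.98, and every mouse had Kcnk1 (51.1 to 73.3) above the highest value of Kcnab2. In libraries 12 to 23 Kcnab2 was highest at 70.1 ± 6.52 CPM per kilobase (SD, n = 12), ahead of Kcnh3 at 65.9 ± 9.24, and Kcnk1 was at 50.4 ± 3.22. The order over all mice also depended on the length used, since with the longest transcript in place of all exons Kcnh3 had 81.4 and Kcnab2 79.9 CPM per kilobase.

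**Figure D1:**
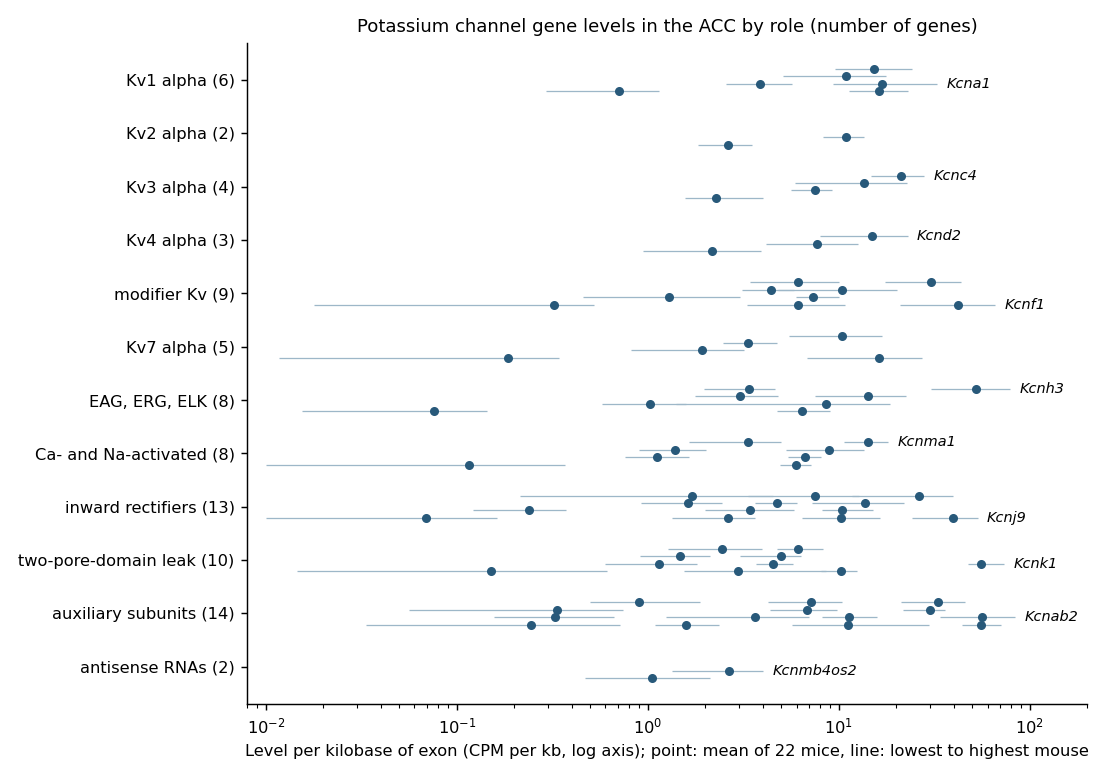
Level per kilobase of exon (CPM per kilobase, log axis) of the 84 potassium channel genes by role, with the number of genes in each role in brackets and the highest gene of most roles named. Points are means of 22 mice and lines run from the lowest to the highest mouse, lowest values under 0.01 being drawn at 0.01. Kcnab2, Kcnk1, Kcnh3, Kcnf1 and Kcnj9 lie farthest right of the named genes, and the lowest means are under 0.1 CPM per kilobase.

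Among the Kv alpha subunits, the highest level was that of Kcna1 in the Kv1 family (16.9 ± 4.90 CPM per kilobase, SD, n = 22), Kcnc4 in Kv3 (21.1 ± 4.82) and Kcnd2 in Kv4 (14.9 ± 4.35). Kcna1, Kcna2 and Kcna3 were at 15.3 to 16.9 CPM per kilobase and could not be ordered. Kcnq3, which encodes a subunit of the M channel, the slow brake on repetitive firing, was at 3.34 ± 0.581 CPM per kilobase. The modifier subunits, which form no channel alone and join Kv2 subunits, included Kcnf1 at 41.9 ± 14.3 and Kcnv1 at 30.4 ± 6.50 CPM per kilobase.

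The pore gene of the BK channel, Kcnma1, had the highest level of the calcium- and sodium-activated group, at 14.2 ± 1.90 CPM per kilobase (SD, n = 22). Of the inward rectifiers, Kcnj9, a subunit of the G-protein-gated (GIRK) channels, was highest at 39.7 ± 8.36 CPM per kilobase, ahead of the strong rectifier gene Kcnj4 at 26.3 ± 8.13. The GIRK gene Kcnj5 (0.0689 ± 0.0517 CPM per kilobase) and the ELK gene Kcnh8 (0.0759 ± 0.0417) had the lowest means of all members and lay within each other's SD. At the count minimum, Kcnj5 (at least 10 counts in 10 mice, 0 to 29 counts), Kcne3 (11 mice, 2 to 37 counts) and Kcnh8 (12 mice, 2 to 22 counts) lay just inside. Kcnab3os (9 mice, 4 to 15 counts), Kcne2 (9 mice, 0 to 41 counts) and Kcna10 (3 mice, 0 to 16 counts) lay just outside. At such counts the stimulation effect was poorly resolved, with standard errors on the log2 scale of 0.57 for Kcnj5, 0.33 for Kcne3 and 0.33 for Kcnh8.

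The members varied between mice about as much as other genes did. The SD of log2 CPM within group and library set had a median of 0.255 for the members and 0.246 for all genes tested. Among the members it was lowest for Kcnip3 (0.122) and reached at most 1.29.

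To ask whether repeated BLA-ACC stimulation left a change in potassium channel transcripts, stimulated mice were compared with controls by edgeR's quasi-likelihood test with the library set in the fit. None of the 84 genes passed a Benjamini-Hochberg adjusted p of 0.05 by edgeR, and none of all 17524 genes did (0%). The smallest adjusted p of edgeR's test was 0.325 among the members and 0.241 among all genes. At an unadjusted p under 0.05 there were 10 members, or 11.9%, beside 11.5% of all genes. Of these 10, 8 were higher in stimulated mice (6.05% of all genes were) and 2 lower (5.45% of all genes). The DESeq2 Wald test and limma voom each gave 10 members at an unadjusted p under 0.05, where they gave 12.5% and 16.3% of all genes. After adjustment each gave 0 members, and of all genes DESeq2 gave 33 (0.188%) and voom 1 (0.00571%). The share of members was thus near the background in the edgeR fit.

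Effect sizes were small and of both signs. The members' log2 fold changes had a median of 0.02, those of all genes of 0.01. Values were positive for 44 members and negative for 40, and 67 of the 84 lay within 0.2 of 0 on the log2 scale. With group as the only term 56 were positive (66.7%, beside 52.5% of all genes), and with the replicate block 60 were (71.4%, beside 51.2%). Neither of these fits had a term for the library set. Libraries 12 to 23 held 6 of 10 stimulated and 6 of 12 control mice, and the pairs of replicates 5 and 6 crossed the sets. Stimulation and library set are thus partly confounded in both fits. Every role with more than 3 genes held values of both signs. The smaller roles, the 2 Kv2 genes, the 3 Kv4 genes and the 2 antisense RNAs, had positive values only (0.01 to 0.18 for Kv4), and of these genes Kcnmb4os2 alone had an unadjusted p under 0.05 by edgeR.

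**Figure D2:**
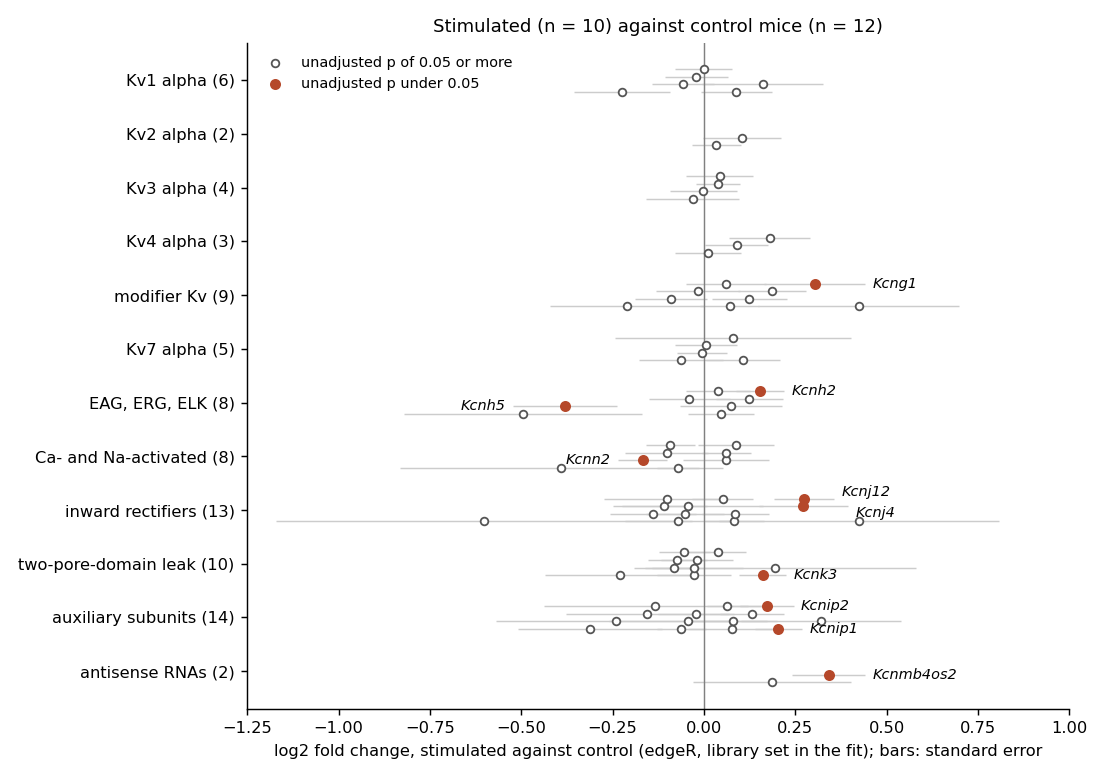
log2 fold change of stimulated (n = 10) against control mice (n = 12) for the 84 genes by role, with bars for the standard error. Filled points mark the 10 genes at an unadjusted p under 0.05, 8 to the right and 2 to the left of 0, and none passed the adjusted threshold.

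With the library set left out of the fit, 1 member reached an unadjusted p below 0.05 by edgeR, against 3.61% of all genes. That gene was Kcnj12 (log2 fold change 0.28, unadjusted p = 0.00466 by edgeR). Within libraries 1 to 11 alone 4 members were at this threshold (5.56% of all genes), 2 higher (2.21%) and 2 lower (3.34%). Within libraries 12 to 23 alone 11 were (12.4% of all genes), 5 higher (4.06%) and 6 lower (8.3%). With the mitochondrial share added to the fit 8 were (10.6%), 5 higher (6.63%) and 3 lower (4.01%). Without controls 9 and 11, 7 members were (8.16% of all genes), 6 higher (4.75%) and 1 lower (3.41%), and no member passed the adjusted threshold. With the replicate block 10 were (7.37%), 9 higher (3.71%) and 1 lower (3.66%), and with 1 surrogate variable (a hidden factor estimated from the counts) 12 were (15.9%), 9 higher (9.53%) and 3 lower (6.32%). By DESeq2 8 of the 10 were higher (6.6% of all genes) and 2 lower (5.86%), and by voom 7 were higher (9.54%) and 3 lower (6.78%). Members called higher thus outnumbered those called lower in these fits except within each library set. Over all genes the higher share was also the larger in these fits, save with group as the only term (0.999% higher, 2.61% lower). Within each library set the lower share of all genes was the larger. With the mitochondrial share added, the members called higher were 5.95% of the members, beside 6.63% of all genes. In none of the 12 genes with the smallest p were the groups free of overlap within a library set. The share of all genes without such overlap is not given here, so this count has no background to be read against.

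The 2 smallest p belonged to Kcnmb4os2 and Kcnj12. Kcnmb4os2 (ENSMUSG00000085837, GRCm38 chromosome 10, 116473163 to 116475319, plus strand) is transcribed against Kcnmb4, the gene of the neuronal BK beta subunit. Its level in libraries 1 to 11 was 5.41, 6.20 and 7.86 CPM (lowest, median, highest) in 6 controls and 6.29, 7.22 and 8.09 CPM in 4 stimulated mice. In libraries 12 to 23 it was 2.72, 3.73 and 4.11 CPM in 6 controls and 3.70, 5.29 and 5.77 CPM in 6 stimulated mice. Stimulated mice were thus mostly the higher ones, with 9 of 10 above the control median of their own set, and the groups overlapped in both. The log2 fold change was 0.34 (SE 0.10, unadjusted p = 0.00235, adjusted p = 0.325 by edgeR). Exons of Kcnmb4os2 share 693 of their 2025 bases with Kcnmb4 on the opposite strand, and whether counting used strand is not given in the sources used here, so its counts are uncertain. Kcnmb4 itself had a log2 fold change of 0.13 (unadjusted p = 0.141 by edgeR).

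Kcnj12 (ENSMUSG00000042529, chromosome 11, 61022564 to 61071131) encodes Kir2.2, a strong inward rectifier that helps hold the resting potential. In libraries 1 to 11 it was at 23.7, 25.9 and 28.9 CPM (lowest, median, highest) in controls and 26.4, 28.7 and 34.5 CPM in stimulated mice. In libraries 12 to 23 it was at 22.6, 25.1 and 30.8 CPM in controls and 25.6, 34.4 and 41.7 CPM in stimulated mice. All 10 stimulated mice lay above the control median of their set. The log2 fold change was 0.27 (SE 0.08, unadjusted p = 0.00256, adjusted p = 0.329 by edgeR), and unlike Kcnmb4os2 the gene differed little between library sets (0.06 on the log2 scale). Kcnj4, which encodes Kir2.3, a relative of Kcnj12 that is also a strong rectifier, had a log2 fold change of 0.27 (SE 0.12, unadjusted p = 0.0357 by edgeR), and of 0.24 (p = 0.0829) without controls 9 and 11. Its control range was 25.3 to 55.3 CPM in libraries 1 to 11 and 54.6 to 81.9 in libraries 12 to 23, and the stimulated range 36.2 to 57.5 and 54.5 to 84.7 CPM. Of the other strong rectifiers, Kcnj2 had a log2 fold change of -0.11 (unadjusted p = 0.361 by edgeR) and Kcnj14 one of -0.04 (p = 0.837).

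A further 3 genes, of KChIPs or Kv modifiers, were among the 8 higher ones. Kcnip1, a KChIP that binds Kv4 channels and is known from interneurons, was at 42.1 to 55.8 CPM in controls and 46.4 to 60.6 CPM in stimulated mice of libraries 1 to 11. In libraries 12 to 23 it was at 27.1 to 35.5 and 34.4 to 41.4 CPM, all 6 stimulated mice above the control median. Its log2 fold change was 0.20 (SE 0.06, unadjusted p = 0.00394 by edgeR). Kcnip2, another KChIP, had a value of 0.17 (SE 0.07, unadjusted p = 0.0284 by edgeR), which was carried by libraries 12 to 23. There controls were at 75.6 to 98.9 CPM and stimulated mice at 97.3 to 124.9, whereas in libraries 1 to 11 the log2 fold change was -0.01. Without controls 9 and 11 its unadjusted p was 0.102 by edgeR. The Kv4 genes that KChIPs serve had log2 fold changes of 0.01 (Kcnd2), 0.09 (Kcnd3) and 0.18 (Kcnd1), none at an unadjusted p under 0.05 by edgeR. Kcng1, a modifier subunit, ran from 21.6 to 48.3 CPM in controls and from 26.5 to 43.7 CPM in stimulated mice of libraries 1 to 11, and from 35.0 to 66.6 and 42.9 to 90.5 CPM in libraries 12 to 23. The log2 fold change of Kcng1 was 0.30 (SE 0.14, unadjusted p = 0.0374 by edgeR), and 0.20 (p = 0.146) without controls 9 and 11. Kcns2, another modifier, had 0.19 (unadjusted p = 0.0585 by edgeR).

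Among pore genes of voltage-gated channels, Kcnh2 and Kcnh5 had values of opposite sign. Kcnh2, the gene of the ERG channel that carries a slow repolarizing current, was at 8.58 to 11.6 CPM in controls and 10.6 to 11.0 CPM in stimulated mice of libraries 1 to 11. In libraries 12 to 23 it was at 15.9 to 19.8 and 16.8 to 23.2 CPM, with a log2 fold change over both of 0.15 (SE 0.07, unadjusted p = 0.0301 by edgeR). Kcnh5, which encodes an EAG channel, was the member with the lowest value at an unadjusted p under 0.05, at -0.38 (SE 0.14, unadjusted p = 0.0128 by edgeR). It was at 12.4, 14.5 and 18.2 CPM (lowest, median, highest) in controls and 5.71, 9.64 and 14.7 CPM in stimulated mice of libraries 1 to 11. In libraries 12 to 23 Kcnh5 was at 47.4, 55.7 and 75.0 CPM in controls and 36.0, 46.7 and 69.2 CPM in stimulated mice. The distance between the library sets was far larger than that between the groups, and 7 of 10 stimulated mice lay below the control median of their set. The paralogue Kcnh1 had a log2 fold change of 0.12 (unadjusted p = 0.184 by edgeR).

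Kcnn2, which encodes a small-conductance calcium-activated (SK) channel of the afterhyperpolarization, was the other lower gene, with a log2 fold change of -0.17 (SE 0.07, unadjusted p = 0.0192 by edgeR). Controls ran from 40.5 to 60.4 CPM and stimulated mice from 40.9 to 49.4 CPM in libraries 1 to 11, and from 45.6 to 60.0 and 43.0 to 54.8 CPM in libraries 12 to 23. In all, 9 of 10 stimulated mice lay below the control median of their set, and without controls 9 and 11 the unadjusted p was 0.0664 by edgeR. The other SK genes, Kcnn1 and Kcnn3, had -0.09 and 0.06. Kcnk3, a leak channel gene (TASK-1), was higher at 0.16 (SE 0.07, unadjusted p = 0.0212 by edgeR). In libraries 1 to 11 it was at 22.1 to 26.1 CPM (mean 24.1) in controls and 25.7 to 32.7 CPM (mean 28.6) in stimulated mice. The difference was smaller in libraries 12 to 23, with 18.8 to 24.8 CPM (mean 22.2) and 20.3 to 28.1 CPM (mean 23.6). Its relative Kcnk9 (TASK-3) had a log2 fold change of -0.02.

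**Figure D3:**
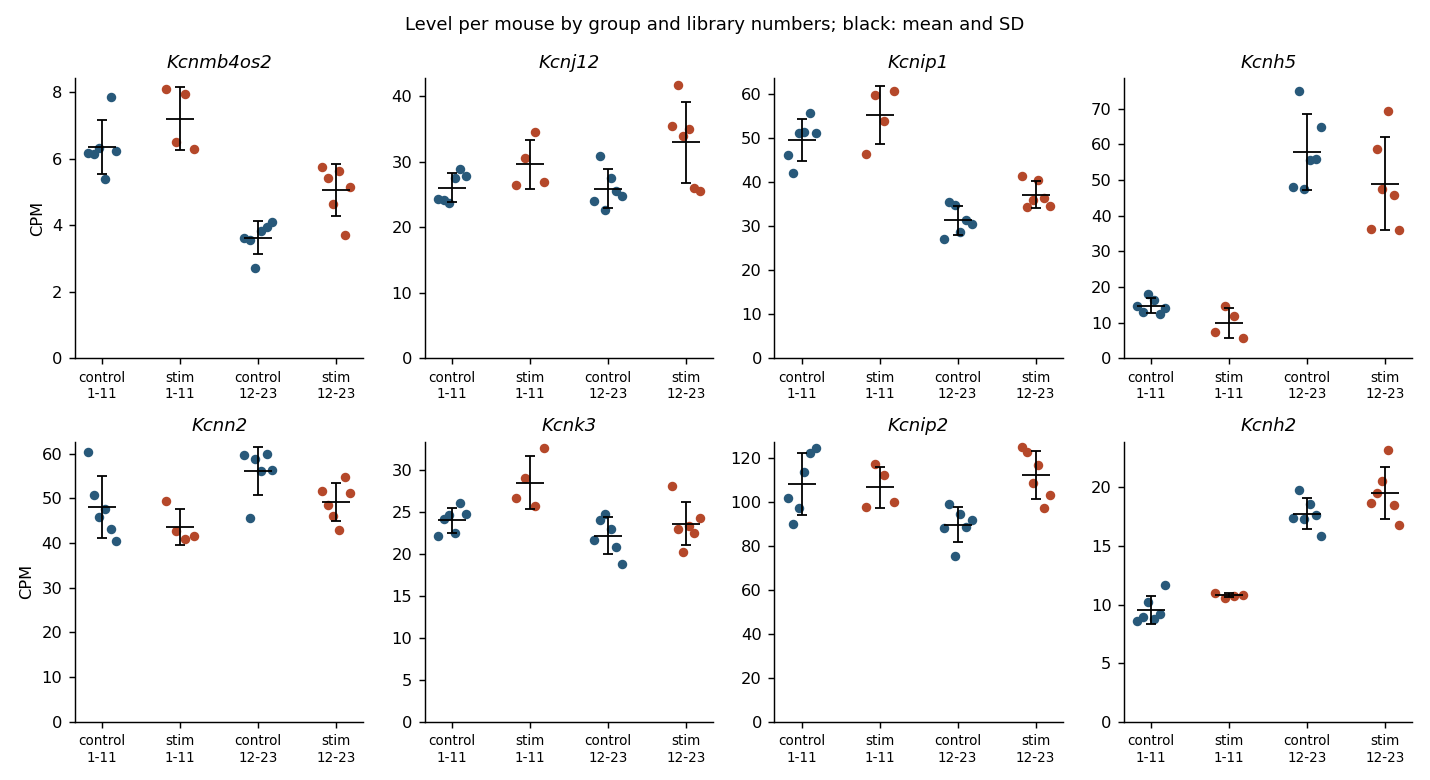
CPM per mouse of the 8 genes with the smallest unadjusted p, by group and library numbers (1 to 11 or 12 to 23), with the mean and SD in black. Groups overlap in every panel within each library set, and for genes such as Kcnmb4os2, Kcnip1, Kcnh5 and Kcnh2 the library sets lie farther apart than the groups.

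Start regions of members were searched for the cAMP response element, a motif through which neuronal activity can act on transcription. RefSeq (GRCm38.p6) gave 85 start windows for 61 of the 84 genes, each from 250 bases before to 50 bases after a start. The full palindrome TGACGTCA was in 0 of the 85 windows and in 1.79% of 32851 windows of all genes. Its core TGACG, searched on both strands and also contained in the full palindrome, was in 16 of the 85 windows (18.8%) and in 20.8% of all windows. Of the 10 members at an unadjusted p under 0.05, 7 had a window, and the core was in 2 of their 9 windows. Both of these and 1 without the core are printed so that their letters can be compared, with the core for Kcnh5 (chr12:75177283-75177582, minus strand) and Kcnj4 (chr15:79505192-79505491, minus strand) and without it for the antisense RNA Kcnmb4os2 (chr10:116472913-116473212, plus strand, inside the Kcnmb4 gene). Capitals mark the core, CGTCA being its form on the other strand.
Kcnmb4os2: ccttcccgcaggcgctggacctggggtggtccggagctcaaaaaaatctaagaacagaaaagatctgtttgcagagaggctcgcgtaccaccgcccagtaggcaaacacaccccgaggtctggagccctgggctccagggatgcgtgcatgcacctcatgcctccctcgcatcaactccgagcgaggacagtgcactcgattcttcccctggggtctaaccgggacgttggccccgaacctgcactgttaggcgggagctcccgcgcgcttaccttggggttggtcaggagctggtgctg
Kcnh5: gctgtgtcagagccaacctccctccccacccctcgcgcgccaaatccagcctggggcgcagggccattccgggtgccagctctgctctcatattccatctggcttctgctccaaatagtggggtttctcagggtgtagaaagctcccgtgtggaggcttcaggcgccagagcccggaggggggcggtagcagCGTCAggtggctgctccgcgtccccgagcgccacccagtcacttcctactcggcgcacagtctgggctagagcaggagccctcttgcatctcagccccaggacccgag
Kcnj4: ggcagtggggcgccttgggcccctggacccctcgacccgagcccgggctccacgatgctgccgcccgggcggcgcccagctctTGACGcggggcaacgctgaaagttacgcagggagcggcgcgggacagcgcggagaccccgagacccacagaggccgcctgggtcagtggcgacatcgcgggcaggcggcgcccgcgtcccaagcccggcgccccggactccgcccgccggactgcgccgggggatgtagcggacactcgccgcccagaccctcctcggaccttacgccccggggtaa
A match in these letters is a description of the sequence and does not show a site in use. Of these 2 genes with the core, Kcnh5 was lower and Kcnj4 higher in stimulated mice, neither past the adjusted threshold.

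Whether the effect of stimulation differed between the library sets was tested as an interaction. None of the 84 members and none of all genes (0%) passed the adjusted threshold by edgeR, and 5 members had an unadjusted p under 0.05, against 8.01% of all genes. Kcnab3, a Kv beta subunit gene, had log2 fold changes of 0.23 in libraries 1 to 11 and -0.79 in libraries 12 to 23, each set fitted alone, and an interaction of -0.97 in the fit of all mice (SE 0.35, unadjusted p = 0.0106, adjusted p = 0.558 by edgeR). Kcng4, a modifier subunit gene, had 0.37 and -0.71 in the separate fits and an interaction of -1.04 in the fit of all mice (SE 0.38, unadjusted p = 0.0112 by edgeR). In both genes the oligodendrocyte-rich controls were the highest mice of all. Kcnab3 was at 84.9 CPM in control 9 and 49.7 in control 11, against at most 41.7 CPM in the other 20 mice, and Kcng4 at 11.6 and 11.3 against at most 6.10 CPM. The leak channel gene Kcnk13 showed the same 2 mice on top, at 26.6 and 19.9 CPM against at most 11.2. Without these controls 0 members had an unadjusted p under 0.05 for the interaction (3.97% of all genes), Kcnab3 being at -0.47 (p = 0.0764) and Kcng4 at -0.55 (p = 0.0942) by edgeR.

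Kcna1, a Kv1 subunit of axons that is clustered beside nodes of Ranvier, also had its highest value in control 9, at 156.7 CPM. Control 11 was next at 112.1 CPM, close to control 8 at 109.9 CPM, and the log2 fold change over all mice was -0.22 (SE 0.13, unadjusted p = 0.103 by edgeR). Without controls 9 and 11 it was -0.07 (SE 0.12, p = 0.549). Over all mice the 5 oligodendrocyte markers all had negative log2 fold changes (median -0.73) at an unadjusted p under 0.05 by edgeR, none past the adjusted threshold. The values were again all negative without controls 9 and 11, with a median of -0.17, and 0 of the 5 were at an unadjusted p under 0.05 by edgeR. Their summed level was 2902 to 18181.9 CPM in controls, at most 5876 CPM without those controls, and 2113 to 5417 CPM in stimulated mice. The 4 choroid plexus and ependyma markers past the count minimum also all had negative values, 3 at an unadjusted p under 0.05 by edgeR and 2 without controls 9 and 11, and Folr1 was under the minimum. Their sums in libraries 12 to 23 were 12.8 to 48.6 CPM in controls and 6.09 to 11.4 CPM in stimulated mice, with no overlap. In libraries 1 to 11 the sums overlapped, at 4.22 to 132.9 CPM (median 11.1) and 10.9 to 17.4 CPM (median 11.6). Inhibitory markers were higher for 5 of 6 genes, 2 at an unadjusted p under 0.05, with sums of 577 to 979 CPM in controls and 650 to 1036 CPM in stimulated mice. Astrocyte markers gave 0 of 5, excitatory markers 1 of 5 and mural markers 1 of 4 at that threshold, and microglia, endothelial, progenitor and striatal lists none. The part of these lists in the values of the members was not tested beyond leaving out controls 9 and 11.

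The genes that act with the channels were examined next, in lists of partner proteins and of sodium/potassium pump subunits, of which 20 of 23 passed the count minimum. None passed the adjusted threshold by edgeR. At an unadjusted p under 0.05 there were 2 of the 20 (11.5% of all genes), both lower (5.45% of all genes). Ank3, the ankyrin-G gene whose product anchors Kv7 channels at the axon initial segment, had a log2 fold change of -0.17 (SE 0.08, unadjusted p = 0.0421 by edgeR), with 107.0 to 243.4 CPM in controls and 100.1 to 208.2 in stimulated mice. Abcc8, the sulfonylurea receptor of the ATP-sensitive channel, had -0.18 (SE 0.09, unadjusted p = 0.0495 by edgeR), with 14.2 to 44.5 and 16.6 to 43.4 CPM. Without controls 9 and 11 neither gene stayed under 0.05, Ank3 being at -0.12 (p = 0.172) and Abcc8 at -0.14 (p = 0.160) by edgeR. The pore partner of Abcc8, Kcnj11, had a log2 fold change of 0.08. Cntn2, an adhesion molecule of the juxtaparanode where Kv1 channels lie, had -0.33 (SE 0.16, p = 0.0585 by edgeR) over all mice and -0.03 (p = 0.730) without these controls. Its direction differed between the library sets. All 4 stimulated mice of libraries 1 to 11 lay above the control median of their set, and all 6 of libraries 12 to 23 below. Vapa, which binds Kv2 channels at contacts with the endoplasmic reticulum, had the highest partner level at 76.4 ± 11.9 CPM per kilobase.

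The library sets separated the potassium channel genes far more than stimulation did. The 84 genes took 0.350% to 0.415% of all counts in libraries 1 to 11 and 0.474% to 0.543% in libraries 12 to 23, with no overlap. Within the sets, the median share was 0.376% in controls and 0.388% in stimulated mice of libraries 1 to 11, and 0.508% in both groups of libraries 12 to 23. Between the sets, 60 of the 84 genes differed at an adjusted p under 0.05 by edgeR, where 68.1% of all genes did. Higher in libraries 12 to 23 were 46 members (33.7% of all genes) and lower 14 (34.3% of all genes), and the median difference was 0.36 on the log2 scale for the members and -0.03 for all genes. Without controls 9 and 11 these counts were 41 (32.3% of all genes) and 14 (35.1%).

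All 6 Kv1, 2 Kv2 and 3 Kv4 alpha genes were higher in libraries 12 to 23 at an adjusted p under 0.05 by edgeR, as were 3 of 4 Kv3, 3 of 5 Kv7 and 5 of 8 EAG, ERG and ELK genes, with no gene of these families lower at that threshold. Without controls 9 and 11, 5 of 6 Kv1 and 2 of 4 Kv3 genes were higher and the counts of the other 4 families were the same. Kcna1 was the Kv1 gene that lost the call, at 0.19 on the log2 scale (SE 0.12, adjusted p = 0.151 by edgeR) from 0.36 with them. Kcnt1, a sodium-activated channel gene, was at 50.2 to 63.2 CPM over the 10 mice of libraries 1 to 11 and 87.7 to 128.2 CPM over the 12 of libraries 12 to 23, higher by 0.96 on the log2 scale (SE 0.06, adjusted p = 2.87e-13 by edgeR). Kcnh2 was higher by 0.88 (SE 0.07) and Kcnh5 by 2.11 (SE 0.15), the largest difference among the members. Of the auxiliary subunits 3 of 14 were higher and 5 lower by the same test (33.7% and 34.3% of all genes, the shares to set beside every role here), and the difference between roles was not tested. Kcnmb4 (-0.75), Kcnip1 (-0.62), Kcne3 (-1.501) and both antisense RNAs (Kcnmb4os2 at -0.67 and Kcnd3os at -0.54) were among the lower ones, and without controls 9 and 11 the lower call was made for 1 of the 2 antisense RNAs. Of the leak channels 5 of 10 were higher and 2 lower, Kcnk1 being at -0.28 on the log2 scale. The inward rectifiers had 6 of 13 higher and 2 lower, the calcium- and sodium-activated genes 5 of 8 higher and 1 lower, and the modifier subunits 5 of 9 higher and 2 lower. Without controls 9 and 11, 3 auxiliary subunits were higher and 4 lower, 4 leak channels higher and 3 lower, and 6 inward rectifiers higher and 3 lower. The calcium- and sodium-activated genes then had 4 higher and 1 lower, and the modifiers 4 higher and 2 lower (32.3% and 35.1% of all genes).

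**Figure D4:**
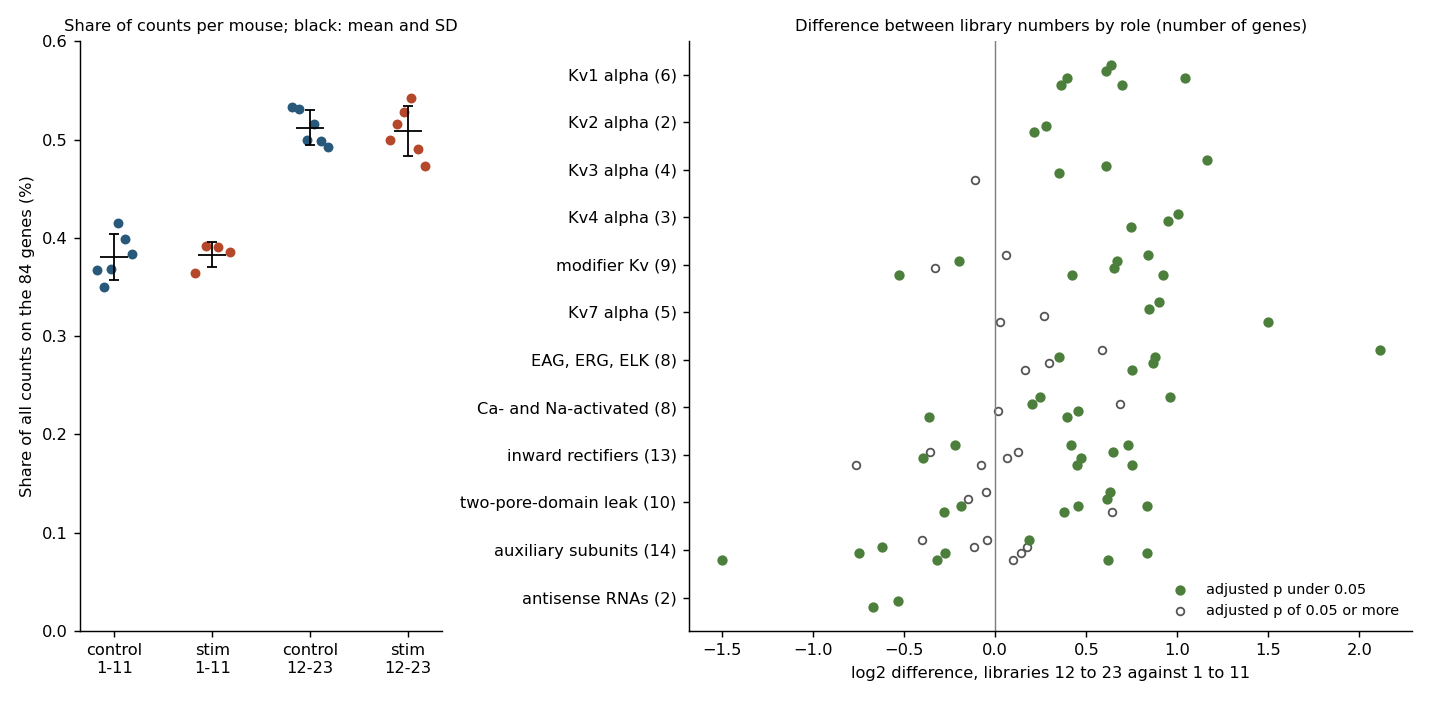
Left, share of all counts that fell on the 84 genes in each mouse (percent), by group and library numbers, with the mean and SD in black. Right, log2 difference between libraries 12 to 23 and 1 to 11 for each gene by role, filled where the adjusted p was under 0.05. Shares are 0.350% to 0.415% in the first set and 0.474% to 0.543% in the second and the groups overlap within each set, and most Kv alpha genes lie to the right of 0 while auxiliary subunits lie on both sides.

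The difference between library sets moved with exonic length. The members had a median exonic length of 4486.5 bases, against 3995 bases for all genes tested. Members at or above that length had a median difference of 0.52 on the log2 scale and shorter ones of 0.01. Over all genes split at the same length the medians were 0.39 and -0.33. Across the 84 genes, which share the same libraries, length and difference had a Spearman correlation of 0.48, given as a description. With the mitochondrial share added to the fit, 35 members were higher (31.4% of all genes) and 14 lower (29.9%) at an adjusted p under 0.05 by edgeR, and the members' median difference was 0.27. The part of length or RNA integrity in the difference was not tested.

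**Figure D5:**
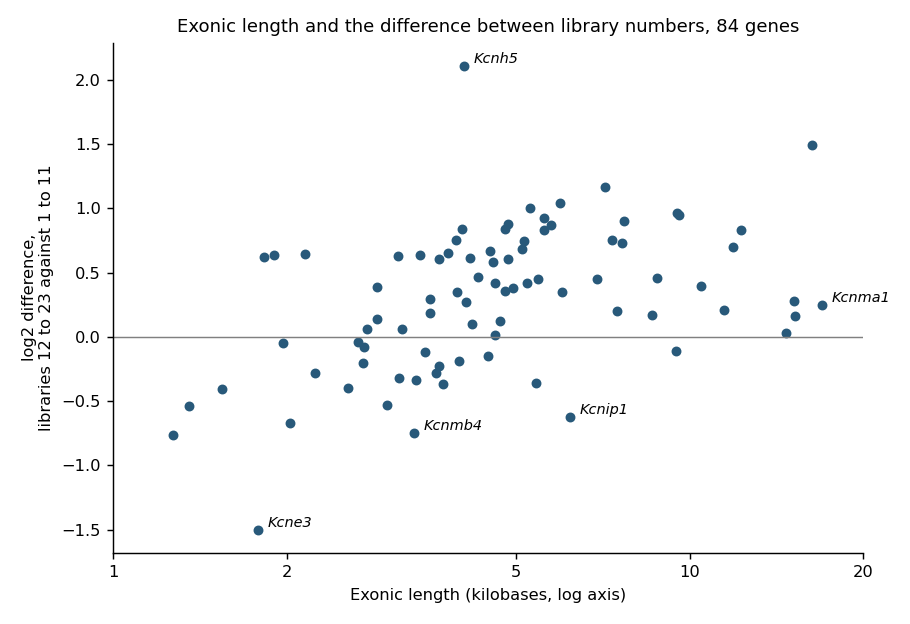
Exonic length (kilobases, log axis) against the log2 difference between libraries 12 to 23 and 1 to 11 for the 84 genes, 1 point per gene. Short genes such as Kcne3 lie low and many genes above 5 kilobases lie above 0, with Kcnh5 and Kcnip1 away from the trend and a Spearman correlation of 0.48.

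Some members could not be counted free of their neighbours. Exons of 29 of the 84 genes overlapped another annotated gene, on the opposite strand for 27 and on the same strand for 2 at their largest overlap. Among them were Kcnj13, which shares 623 of 1270 bases with Gigyf2, and Kcna6, which shares 2355 bases with Gm26673. How reads in such stretches were assigned is not given in the sources used here, so these values are uncertain.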

How the data were processed

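Libraries were made from 5 ng of total RNA with a full-length kit (SMARTSeq v4). Per the labels' processing notes and the study's methods, the authors used cutadapt 1.10 for trimming, STAR 2.5.3a for alignment to mm10 and HTSeq 0.6.1p1 to count reads with a unique alignment. The authors deposited whole-number counts, which were the values tested, together with a signal made by dividing counts by size factors and the log2 fold changes and p-values of their own comparison (DESeq2 1.22.1, batch and RNA integrity as covariates), both not used here. Of 37786 gene IDs, 37772 matched GENCODE M21.

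The 17524 genes that met the count minimum (10 counts in 10 mice) were fitted with edgeR 4.0.16 in R 4.3.3 (TMM, glmQLFit, glmQLFTest, Benjamini-Hochberg over all genes), with group and library set as terms. The library set stands in for the batch of the study, which the labels do not give, nor RNA integrity. A fit with group alone, limma 3.58.1 voom, DESeq2 1.42.0, sva 3.50.0 and other filters were alternatives. Standard errors are the fold change divided by the root of F. No 2 libraries were duplicates, the smallest mean chi-square per gene over pairs being 10.1. The series text gives 23 samples where its groups hold 22. The fits were tested on simulated data.

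Named genes were the highest of each role, those with the smallest p (12 for stimulation, 4 for library set, 2 for the interaction) and those next to the count minimum, and some relatives of these were added after their values were seen. Some genes that this rule names are not reported here. The members and lists were chosen with earlier results of these data known.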

Additional observations from a re-analysis of the deposited data

Results flagged for a closer look

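Over 34 named genes, 1 stimulated mouse lay apart from its group by Dixon's criterion. Kcng4 in stimulated replicate 4 was at 0.673 on the log2 CPM scale (1.74 CPM), below the other 9 stimulated mice. Chance gives about 1 such value in 20 groups, and the 12 controls were too many for the criterion to be applied.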

How the results depend on the processing

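The count of 0 members past the adjusted threshold held under every alternative run. The 10 members at an unadjusted p under 0.05 became 1 with group as the only term and 4 within libraries 1 to 11, and 7 to 12 when single mice were left out. The 2 partner and pump genes became 0 with group alone or without controls 9 and 11, 1 with DESeq2 size factors, no count minimum, voom, the DESeq2 Wald test or libraries 1 to 11, and 4 with libraries 12 to 23 or the mitochondrial share added, where these settings gave 3.61% to 16.3% of all genes. Leaving out single mice gave 0 to 4 of them: 0 without controls 4, 5, 8, 9 or 11 or stimulated mice 5, 7 or 10, 1 without controls 6 or 7 or stimulated mice 1, 2, 3, 6 or 9, and 4 without control 10. The median fold change ran from -0.00409 to 0.0460 and the count between library sets from 57 to 61 when single mice were left out. Log2 fold changes reversed for Kcnip2 (-0.00967), Cntn2 (0.129) and Lrrc55 (0.00643, from -0.25) within libraries 1 to 11, and for Abcc8 (0.0194) and Cntn2 (0.115) with the replicate block. The replicate block fit had no term for library set, and its pairs of replicates 5 and 6 crossed the sets, so stimulation and set are partly confounded there. Without controls 9 and 11, Abcc8 was higher by 0.98 and Cntn2 by 1.47 on the log2 scale in libraries 12 to 23. The causes were not tested. Leaving out controls 9 and 11 and adding the mitochondrial share were chosen after seeing the data.

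Same-numbered mice are different animals, and the labels tie no number to a shared litter, batch or day. With group means removed, 8 of 10 pairs correlated above 0.1 (mean 0.308, lowest -0.367), and with means of group and library set removed 3 of 10 did (mean 0.0511). The pairs not above 0.1 with group means removed were replicates 5 (-0.297) and 6 (-0.367), whose mice lay in different library sets. As not every pair correlated above 0.1, the mice were not taken as paired. With the replicate block 10 members had an unadjusted p under 0.05 (7.37% of all genes did) and the median was 0.07. The spread between mice and the low counts of genes such as Kcnj5 limit the size of change that could be seen.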
